A study of Mus musculus with 6 samples.

Results

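The muscleblind-like genes Mbnl1, Mbnl2 and Mbnl3, the pseudogene Gm33707 that lies next to Mbnl1 on mouse chromosome 3, and P2ry1, the next protein-coding gene beyond it, were followed in double-positive thymocytes with and without a Mettl14 deletion. These 5 genes are the rows of the authors' deposited table that carry those symbols, out of 16448 genes in that table and 43430 gene identifiers with raw counts. Mbnl1 and Gm33707 were chosen by this measure, being higher in the deleted samples, with log2 fold changes of 0.45 (SE 0.0751, adjusted p = 3.92e-06) and 10.96 (SE 1.01, adjusted p = 1.02e-23) in the authors' deposited table. The other members were taken for kinship (Mbnl2, Mbnl3) or position (P2ry1). An adjusted p below 0.05 was given to 118 of the 15491 genes that carry one there, or 0.762%. Mbnl1 and Gm33707 are 2 of those 118 by the way they were picked, so their differences are given here as a description without a test. The authors' deposited table gave Mbnl2 a log2 fold change of 0.17 (SE 0.0757, adjusted p = 0.476), Mbnl3 one of 0.13 (SE 0.203, adjusted p = 0.999) and P2ry1 one of -0.62 (SE 0.861, adjusted p = 0.999).

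RNA sequencing was done on CD4+CD8+ thymocytes, the stage between the double-negative precursors and the mature single-positive T cells, sorted by flow cytometry from C57BL/6 mice. The 3 knockout libraries (KO) came from mice with both Mettl14 alleles floxed and a CD4-Cre transgene, which drives recombinase from regulatory elements of Cd4 in cells that have reached the double-positive stage. The 3 control libraries (WT) came from littermates whose genotype is labelled WT. Whether the controls carried the transgene or the floxed alleles is not given in the labels, so that deletion and transgene cannot be told apart. Age and sex are not labelled, and no label says that the libraries of a group are separate animals, and p-values here thus reflect only how libraries varied, which may be technical.

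Muscleblind-like proteins are RNA-binding proteins with CCCH zinc fingers that recognise YGC motifs in pre-mRNA and mRNA. They shift alternative splicing toward the patterns of mature tissue, affect polyadenylation and RNA localisation, and are sequestered by expanded CUG repeats in myotonic dystrophy. Mbnl1 is the main member in most adult tissues, Mbnl2 is known for its role in the brain, and Mbnl3 for expression in proliferating and undifferentiated cells. The protein made from Mettl14 pairs with Mettl3 to form the methyltransferase that places the m6A mark on mRNA.

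Between 29500254 and 33377056 reads were counted in genes in each library. Mettl14 itself was counted at 1779, 1942 and 1634 reads in WT and at 1273, 1190 and 1174 in KO, without overlap between the groups (log2 fold change -0.49, SE 0.0855). The sorted cells carried the RNA of their label: the 13 double-positive markers, Cd4, Cd8b1, Rag1 and Rag2 among them, summed to 18500 to 20880 CPM (counts scaled to a common library size) in WT and 19730 to 20370 in KO. The fit used below (edgeR quasi-likelihood on raw counts with TMM scaling) called 5 of 13039 tested genes at an adjusted p below 0.05, or 0.0383%. These are Gm33707, which was picked for this difference so that its call is no evidence, and 4 genes that were lower, Cacna1e, Hmga1b, Atp6v0c-ps2 and Gm9825, named here after their values were seen. An unadjusted p below 0.05 was reached by 876 genes, or 6.72%, and Mbnl2 was among them. All 5 members passed the filter on low counts, Gm33707 through its KO libraries alone. In bulk RNA, a change in the number of cells that carry a transcript and a change in its amount per cell cannot be told apart.

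The 3 Mbnl genes lie on different chromosomes of mm10. Mbnl1 (ENSMUSG00000027763) spans chr3:60472830-60629750 on the plus strand, Mbnl2 (ENSMUSG00000022139) chr14:120275669-120431697 on the plus strand and Mbnl3 (ENSMUSG00000036109) chrX:51117269-51206532 on the minus strand. Their coding sequences are related but far from identical. Over 1104 aligned bases Mbnl1 and Mbnl2 were 72.8% identical, over 1018 bases Mbnl1 and Mbnl3 were 70.8% identical, and over 1023 bases Mbnl2 and Mbnl3 were 68.6% identical. The start of the coding sequence, which encodes the beginning of the protein ahead of and into the first zinc finger, shows how often a read from 1 gene would differ from its paralogs. The 90 bases below are from GENCODE M21 transcripts, 5′ to 3′, at coding bases 4 to 93 of Mbnl1-214 and Mbnl2-202 and 7 to 96 of Mbnl3-203. Capitals in the Mbnl1 line mark bases at which either paralog differs, and capitals in the other lines mark bases that differ from Mbnl1.
Mbnl1: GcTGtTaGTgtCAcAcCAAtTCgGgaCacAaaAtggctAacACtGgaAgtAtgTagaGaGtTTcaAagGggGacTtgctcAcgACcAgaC
Mbnl2: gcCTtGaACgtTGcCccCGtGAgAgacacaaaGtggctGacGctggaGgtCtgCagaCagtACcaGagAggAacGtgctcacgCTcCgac
Mbnl3: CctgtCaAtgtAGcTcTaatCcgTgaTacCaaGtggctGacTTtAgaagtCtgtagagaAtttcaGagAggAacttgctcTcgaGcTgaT
Mbnl2 differs from Mbnl1 at 29 of these 90 bases and Mbnl3 at 25. The longest run of identical coding bases was 26 between Mbnl1 and Mbnl2, 16 between Mbnl1 and Mbnl3 and 15 between Mbnl2 and Mbnl3. Of all 50-base windows in the annotated transcripts, 99.9% of those of Mbnl1, 99.6% of those of Mbnl2 and 99.8% of those of Mbnl3 occurred in the transcripts of no other gene, and every 100-base window was unique in this sense. Nearly all of the transcript sequence behind the 3 Mbnl counts is thus particular to 1 gene.

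Mbnl1 had the highest CPM of the members in every library and was higher in each KO library than in each WT library. Raw counts were 18275, 18497 and 18361 in WT and 22791, 22606 and 26073 in KO. After TMM scaling these are 534.8, 560.0 and 627.2 CPM in WT and 755.7, 765.7 and 808.1 CPM in KO. The lowest KO library lay above the highest WT library, and replicate 3 was the highest of its group on both sides. The WT mean was 574.0 ± 47.8 CPM and the KO mean 776.5 ± 27.8 CPM (SD, n = 3 each), so that KO was 35.3% higher (log2 fold change 0.44, SE 0.0773). By mean CPM, Mbnl1 ranked 140 of the 13039 tested genes. This rank is not scaled for gene length, so it reflects reads counted and not the number of transcripts. The fit did not place Mbnl1 among its 5 calls, whereas the authors' deposited table does call it.

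**Figure D1:**
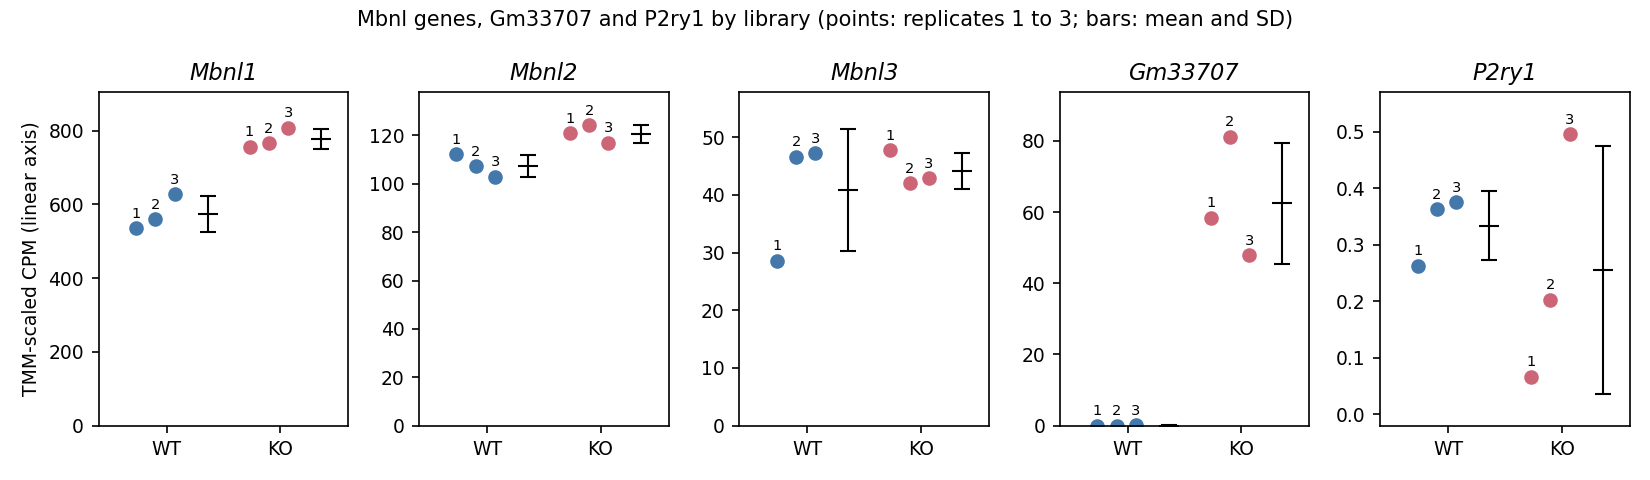
TMM-scaled CPM on linear axes for each gene in WT (blue) and KO (red); points are single libraries numbered by replicate, and the bars beside them are the mean and SD of 3 libraries. Mbnl1, Mbnl2 and Gm33707 do not overlap between groups, Mbnl3 and P2ry1 do, and WT replicate 1 stands apart for Mbnl3 at 28.56 CPM.

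Mbnl2 showed a smaller difference in the same direction. It was counted at 3829, 3541 and 3016 reads in WT and 3645, 3667 and 3772 in KO, or 112.1, 107.2 and 103.0 CPM against 120.9, 124.2 and 116.9 CPM. The raw counts of the groups overlapped, and the scaled values did not: the highest WT library was at 112.1 CPM and the lowest KO library at 116.9 CPM. Mean levels were 107.4 ± 4.52 and 120.7 ± 3.66 CPM (WT and KO, SD, n = 3 each), a difference of 12.3% (log2 fold change 0.17, SE 0.0649). With edgeR's adjustment over all genes the p was 0.715, so Mbnl2 did not pass the test.

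Mbnl3 gave no separation of the groups. Its counts were 976, 1540 and 1383 in WT and 1439, 1240 and 1382 in KO, or 28.56, 46.62 and 47.24 CPM against 47.72, 42.00 and 42.83 CPM. WT replicate 1 stood below the other 5 libraries, which all lay between 42.00 and 47.72 CPM. Mean levels were 40.8 ± 10.6 and 44.2 ± 3.09 CPM (WT and KO, SD, n = 3 each; log2 fold change 0.12, SE 0.182, edgeR adjusted p = 0.915). Leaving out WT replicate 1 gave -0.087, on the other side of 0. That library was also low for the proliferation genes Mki67, at 970.1 CPM against 1487 to 2300 CPM in the others, and Cdc45, at 53.4 CPM against 74.96 to 96.5 CPM. The part of cell proliferation in the Mbnl3 value was not tested. Mbnl3 is X-linked, and all libraries carried Xist, the RNA of the inactive X, at 1772 to 2723 CPM, with a single count of the Y-linked Ddx3y over the 6 libraries.

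Across all genes tested, 859, or 6.59%, had KO libraries all above the WT libraries in scaled CPM. Mbnl1, Mbnl2 and Gm33707 are 3 of 5 members in that class. For Mbnl1 and Gm33707 this follows from how they were chosen, and Mbnl2 is 1 gene, which is not a result about the family.

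Levels can be compared between genes per length. The deposited length column gives Mbnl1 58548 bases, more than its annotated exons hold, so the exons of each gene in GENCODE M21 were merged instead (18717 bases for Mbnl1, 11993 for Mbnl2 and 8743 for Mbnl3). On this scale Mbnl1 stood at 30.7 ± 2.55 (WT) and 41.5 ± 1.48 (KO) CPM per kilobase (SD, n = 3 each). Mbnl2 stood at 8.96 ± 0.377 and 10.1 ± 0.305, and Mbnl3 at 4.67 ± 1.21 and 5.05 ± 0.353. The order Mbnl1, Mbnl2, Mbnl3 held in all 6 libraries, and no value of 1 gene reached the range of the next.

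Summed over the 3 genes, the family stood at 41.2, 44.2 and 47.5 CPM per kilobase in WT and at 55.9, 56.1 and 57.8 in KO. The sum was higher in every KO library, and most of the gap lay in Mbnl1. Mbnl1 made up 69.4%, 67.7% and 70.5% of the family level in WT and 72.2%, 73.0% and 74.7% in KO, Mbnl2 22.7%, 20.2% and 18.1% against 18.0%, 18.5% and 16.9%, and Mbnl3 7.93%, 12.1% and 11.4% against 9.76%, 8.57% and 8.47%. The share of Mbnl1 thus did not overlap between groups, while the shares of Mbnl2 and Mbnl3 did. Mbnl1 was chosen as higher in KO and holds most of the family level. The higher sum and the higher share of Mbnl1 therefore follow largely from that choice and are given as a description. The share depends on the length used: with the longest coding transcript of each gene, an alternative chosen after seeing the data, Mbnl1 made up a mean of 75.8% in WT and 79.2% in KO in place of 69.2% and 73.3%.

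**Figure D2:**
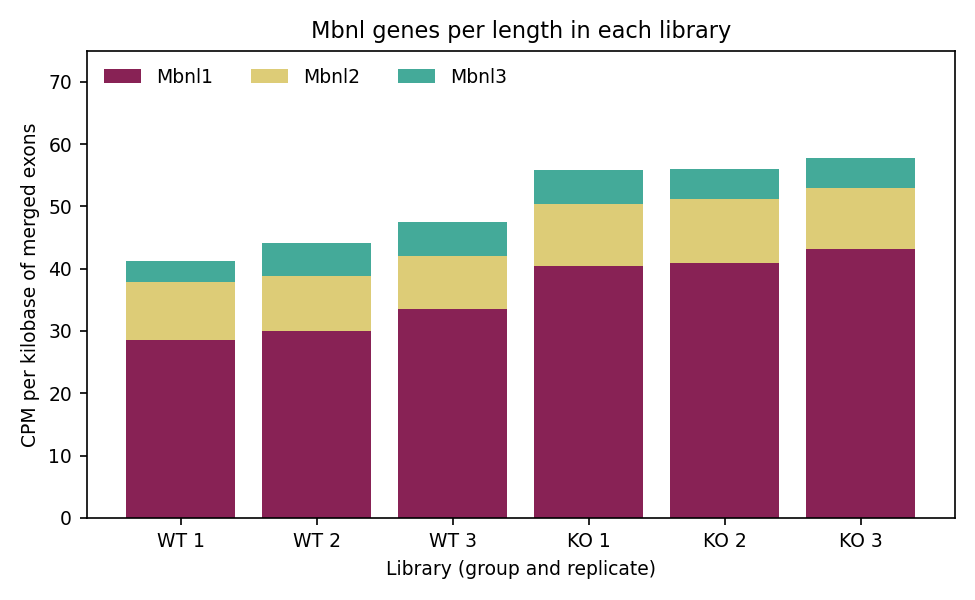
Stacked bars give the level of Mbnl1, Mbnl2 and Mbnl3 in each library, as CPM per kilobase of merged exons on an axis that starts at 0. The total runs from 41.2 to 47.5 in WT and from 55.9 to 57.8 in KO, and the Mbnl1 segment carries most of the gap. Mbnl1 was chosen as higher in KO, so the gap is a description.

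Since Mettl14 serves the m6A writer, the transcripts were read for GGACT, a common form of the sequence in which m6A is found (sense strand, overlapping no other motif searched). In the longest coding transcript, Mbnl1-201 (5655 bases) held 2 copies, Mbnl2-201 (4552 bases) 4 and Mbnl3-202 (4649 bases) 0. That is 0.354 and 0.879 copies per kilobase for Mbnl1 and Mbnl2, against a median of 1.01 over 21901 coding genes, of which 87.6% hold at least 1 copy. A lower density than that of Mbnl1 was found in 16.2% of genes, and than that of Mbnl2 in 42.5%. The copies within coding sequence are shown with the bases on either side, the motif in capitals, at coding bases 66 to 86 of Mbnl1-214 and 516 to 536 of Mbnl2-202.
Mbnl1: tcaaagggGGACTtgctcacg
Mbnl2: acttctcaGGACTgataaact
These letters are a description of the transcripts: m6A was not measured in these libraries, and the absence of the motif from Mbnl3-202 says nothing about methylation at other forms of the site.

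Gm33707 was counted almost exclusively in KO. Its raw counts were 1, 0 and 2 in WT and 1762, 2395 and 1545 in KO. Scaled, these are 0.0293, 0 and 0.0683 CPM in WT and 58.4, 81.1 and 47.9 CPM in KO (62.5 ± 16.99 CPM, SD, n = 3). Every KO library was high and every WT library was at the level of a few reads or none. Over each group the totals were 3 and 5702 counts, and scaled for depth the KO total was 1994 times that of WT (95% exact counting interval 682.1 to 9673, which covers counting error only). The ratio rests on the 3 WT reads and moved from 1312 without WT replicate 2 to 4187 without WT replicate 3. Of the 43430 rows in the count table, Gm33707 was the only one with at most 3 counts summed over 1 group and at least 100 in each library of the other; the limit of 3 equals its own WT total, and the gene was chosen for this gap, so this is a description. In KO its mean level, 62.5 CPM, lay above that of Mbnl3 and below that of Mbnl2. Per kilobase of its 569 annotated bases it reached 109.8 ± 29.8 CPM (SD, n = 3). Its place relative to Mbnl1 depends on the length used: in KO, Mbnl1 stood at 40.4 to 43.2 CPM per kilobase of merged exons and at 133.6 to 142.9 per kilobase of its longest coding transcript, and RefSeq (GRCm38.p6) gives the Gm33707 gene 2056 bases.

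**Figure D3:**
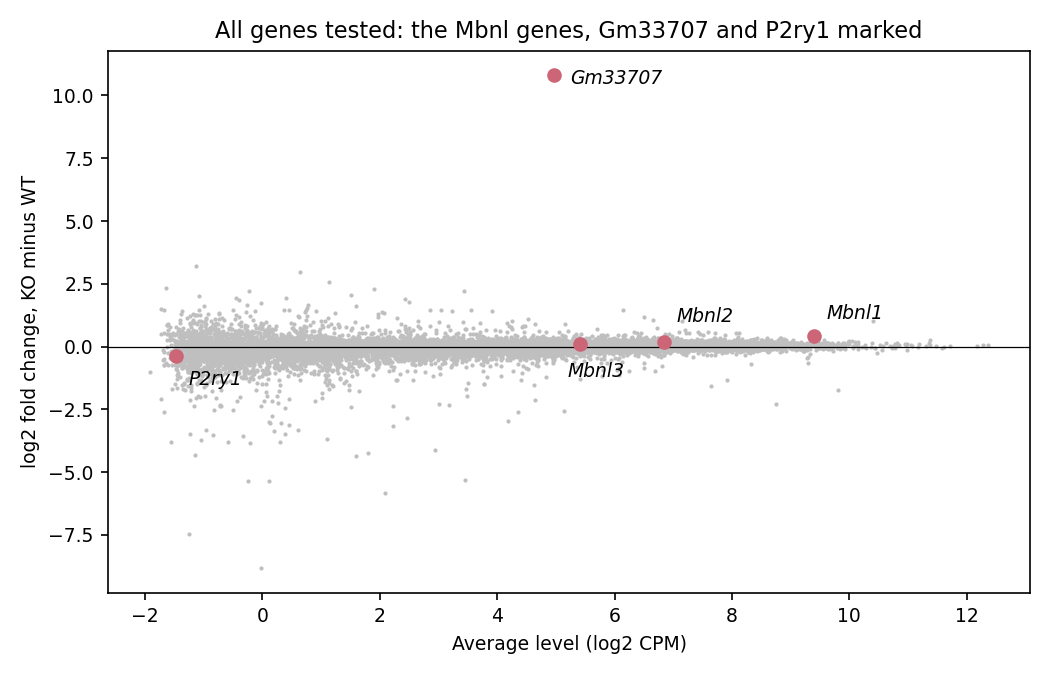
Each grey point is 1 of 13039 tested genes, with the average level (log2 CPM) on the x axis and the log2 fold change, KO minus WT, on the y axis; the 5 described genes are marked in red. Gm33707 lies at the top, where its position depends on the prior count because WT holds 3 reads, and the Mbnl genes lie close to 0 on this scale.

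Gm33707 (ENSMUSG00000102298) is annotated as a processed pseudogene, an intronless copy of a mature mRNA put back into the genome, at chr3:60769887-60770455 on the minus strand of mm10. It begins 140.1 kb after the end of Mbnl1, which runs on the opposite strand, and lies outside any annotated exon of Mbnl1. In sequence it resembles part of Eno1, which encodes the glycolytic enzyme enolase 1, and not the Mbnl genes. Its whole length, bases 1 to 569, aligned in the same orientation with bases 1128 to 1702 of Eno1-202, which covers the last part of the coding sequence (bases 399 to 1700) up to its end. Of 568 aligned bases 90.5% were identical and 54 were mismatched. The first 120 bases of Gm33707-201 are shown over the matching bases 1128 to 1247 of Eno1-202, from GENCODE M21, 5′ to 3′. This stretch is a closer match than the alignment as a whole, with 4 of the 54 mismatches and no gap. Capitals mark the 4 bases at which they differ.
Gm33707: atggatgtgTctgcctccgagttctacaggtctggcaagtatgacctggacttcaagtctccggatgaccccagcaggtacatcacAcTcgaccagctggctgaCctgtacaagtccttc
Eno1: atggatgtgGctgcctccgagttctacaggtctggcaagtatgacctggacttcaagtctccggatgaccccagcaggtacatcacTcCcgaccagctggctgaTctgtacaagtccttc
The bases between the first and the second difference are identical, and 3 of the 4 differences lie toward the 3′ end of the stretch. A search of all transcripts with BLAST matched 20 other genes to Gm33707, led by Gm4735 (89.5% identical, gaps counted as differences), Eno1 and Eno1b (89.2% each) and Gm8483 (89.2%). The longest exact run that Gm33707 shares with another transcript was 85 bases, with Gm8483. Of its 50-base windows, 88.5% of 520 occurred in no other gene's transcripts, and of its 100-base windows all 470. This search covered transcripts and not the genome, and the read length is not given in the sources used here.

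No relative of Gm33707 in the count table showed a gap of its size between the groups. Of the 20 matched genes 12 are in the count table, and the other 8 were not analysed here. Apart from Eno1, Eno2 and Eno3, there are 9 copies in the table, of which 7 had 0 counts in all libraries. Eno1b had 2 counts in total (0, 0 and 0 in WT, 2, 0 and 0 in KO). Gm4735 had 5 (0, 1 and 0 in WT, 1, 1 and 2 in KO). Counts this low cannot show whether these copies moved with Gm33707. Eno1 was counted at 3758, 4204 and 3639 reads in WT and 4087, 3529 and 5028 in KO, with overlap (120.5 ± 9.25 and 137.0 ± 18.2 CPM, SD, n = 3 each; log2 fold change 0.18, SE 0.108, edgeR adjusted p = 0.776). Eno3, the muscle enolase, had 788, 683 and 619 reads in WT and 739, 696 and 734 in KO (log2 fold change 0.13). Eno2, the neuronal enolase, was low in both groups, at 3.40 ± 0.555 and 2.36 ± 0.666 CPM (SD, n = 3 each; log2 fold change -0.53). None of the 3 tested enolases was called. Reads of a near-identical copy can be split or dropped by the counting. In each library 22.6% to 23.9% of all reads in the counting output had several alignments and were listed apart from the gene counts. The level of Gm33707 is thus uncertain on that side. Which read sequences lie behind its counts was not tested, because counts per gene do not hold them.

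P2ry1 (ENSMUSG00000027765), at chr3:61002795-61008982 on the plus strand, encodes a G protein-coupled receptor for ADP known from platelets. It begins 232.3 kb after the end of Gm33707 and was close to the detection limit. Its counts were 9, 12 and 11 in WT and 2, 6 and 16 in KO, or 0.263, 0.363 and 0.376 CPM against 0.0663, 0.203 and 0.496 CPM. KO replicates 1 and 2 lay below every WT library and KO replicate 3 above every one. Means were 0.334 ± 0.0616 and 0.255 ± 0.219 CPM (SD, n = 3 each; log2 fold change -0.36, SE 0.618, edgeR adjusted p = 0.923). Leaving out KO replicate 1 gave 0.085 and leaving out KO replicate 3 gave -1.28, so no direction can be read at this depth. In mean CPM P2ry1 ranked 12980 of the 13039 tested genes. Of its 50-base windows 78.0% occurred in no other gene; Gm37035, annotated on the opposite strand, overlaps it and had 0 counts in every library.

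The pattern of Gm33707 was not shared by the genes around it. In order along the chromosome, the 25 genes from the 10th before Mbnl1 to the 10th after Gm33707 include 13 with 0 counts in all libraries and 12 with at least 1 count. Those closest to Gm33707 on either side, Gm38280 and Gm38326, were at 0 in all 6 libraries. Of the 23 neighbours other than Mbnl1 and Gm33707, 5 were abundant enough to be tested and 0 were called by edgeR, with 0 at an unadjusted p below 0.05. Their log2 fold changes had a median of 0.066, beside -0.0040 for all genes tested.

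Rap2b, a small GTPase of the Ras family, was the 1 well expressed neighbour. It was counted at 1375, 1266 and 1228 reads in WT and 1245, 1190 and 1437 in KO, with overlap (log2 fold change 0.066, SE 0.0768, edgeR adjusted p = 0.879). B430305J03Rik, which lies opposite Rap2b, had 32, 33 and 17 reads against 16, 12 and 21 (log2 fold change -0.66, SE 0.345, edgeR adjusted p = 0.767), and antisense Gm37696 had 21, 18 and 8 against 18, 18 and 16 (log2 fold change 0.23, SE 0.375, edgeR adjusted p = 0.915). The strand setting of the counting is not given, so reads of overlapping genes on opposite strands cannot be told apart.

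Within an intron of Mbnl1 and on its strand, 2 unconfirmed transcripts were counted at low levels. Gm37589 had 14, 6 and 7 reads in WT and 16, 23 and 13 in KO, with overlap (log2 fold change 1.02, SE 0.442, edgeR adjusted p = 0.733). Gm37488 had 9, 4 and 3 against 5, 7 and 6 and was too low to be tested. Both values were too small to say whether intronic reads moved with Mbnl1. The remaining detected neighbours, Gm2756, Gm8298, Gm36985 and Gm8325, held 1 to 3 counts each over all libraries. Mettl14, the floxed gene, is on the same chromosome, 62.6 Mb beyond Gm33707.

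**Figure D4:**
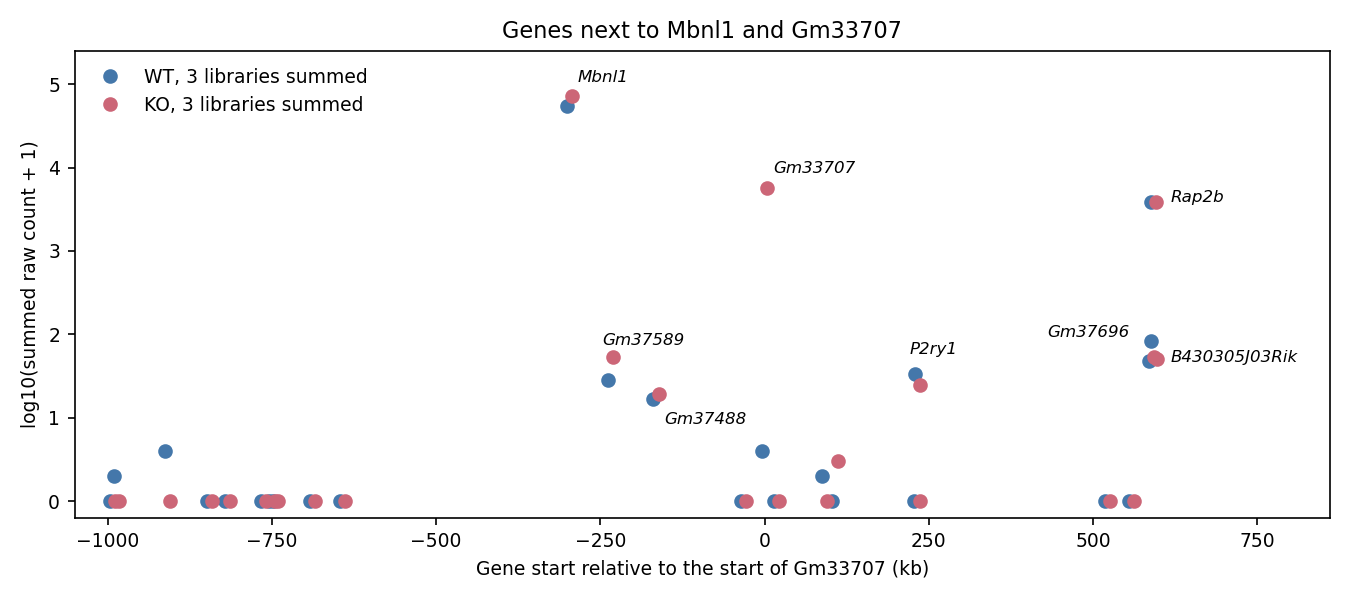
Genes along chromosome 3 by the distance of their start from that of Gm33707 (x axis, kb) and by their summed raw count (y axis, log10 of count plus 1); blue is the sum of 3 WT libraries and red of 3 KO libraries, and genes with at least 20 counts are named. Gm33707 is the 1 gene with a wide gap between groups, at 3 and 5702 counts, and its closest neighbours lie at 0.

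The wider group of splicing regulators, which includes the CELF proteins that oppose MBNL and other tissue-type factors, had 28 of 40 listed genes tested. None was called by edgeR, 0 had an unadjusted p below 0.05 upward and 6 downward (all genes: 3.41% upward and 3.31% downward), and the median log2 fold change was -0.0012, beside -0.0040 for all genes tested. The lowest p belonged to Esrp2, the epithelial splicing regulator, with 1040, 520 and 406 reads in WT and 97, 306 and 255 in KO (log2 fold change -1.48, SE 0.443, edgeR adjusted p = 0.630). Hnrnph1, an abundant splicing repressor and activator, had 897.0 ± 21.5 CPM in WT libraries and 795.8 ± 52.7 in KO libraries (SD, n = 3 each; log2 fold change -0.17, SE 0.0697, edgeR adjusted p = 0.733). The neuronal factor Celf4 (log2 fold change -0.93) and Khdrbs3 (log2 fold change -1.05) were low in both groups, each at about 1 CPM or less.

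Among genes that share the CCCH zinc finger with MBNL, 29 of 30 were tested. None was called by edgeR, 3 had an unadjusted p below 0.05 upward and 0 downward, beside the same 3.41% and 3.31% of all genes, and the median log2 fold change was -0.0285 (0.031 without WT replicate 1). Those 3 were Rc3h1 and Rc3h2, the Roquin proteins that speed the decay of mRNAs in T cells, and the antiviral factor Zc3hav1. Rc3h1 stood at 130.5, 122.0 and 145.3 CPM in WT and 153.2, 154.0 and 158.7 CPM in KO (log2 fold change 0.23, SE 0.0776, edgeR adjusted p = 0.695). Rc3h2 (log2 fold change 0.27) overlapped between groups and Zc3hav1 (log2 fold change 0.21) did not.

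Genes known to be spliced under MBNL control showed no common shift in total level, with 28 of 35 tested. None was called by edgeR, 1 had an unadjusted p below 0.05, downward as for 3.31% of all genes (Tnnt3, a troponin of fast muscle, log2 fold change -0.88, edgeR adjusted p = 0.733), 14 lay above 0 and the median was -0.0027. Ppp2r5c, a phosphatase subunit, stood at 385.1 ± 8.49 and 412.3 ± 11.1 CPM (SD, n = 3 each; log2 fold change 0.099), and Ptbp2, another splicing regulator, at 50.6 ± 5.90 and 45.2 ± 0.611 CPM (log2 fold change -0.16). Counts per gene do not hold the use of single exons, so splicing itself could not be compared.

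The P2 receptors, to which P2ry1 belongs, had 9 of 16 genes tested, 0 called by edgeR and 0 at an unadjusted p below 0.05. Their median was -0.13, and 2 of the 9 lay above 0. The median was -0.018 without WT replicate 1 and 0.015 without KO replicate 1, so it has no settled sign. The abundant members were P2rx1, an ATP-gated channel, at 126.7 ± 24.5 and 111.4 ± 9.98 CPM (SD, n = 3 each; log2 fold change -0.19), and P2ry10 at 142.3 ± 8.75 and 150.3 ± 24.9 CPM (log2 fold change 0.080). Both overlapped between groups.

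Markers of other cells in the sort were read beside these values. Myeloid and dendritic markers (11 of 11 detected) summed to 61.4 to 68.6 CPM in WT and 70.7 to 94.4 CPM in KO. NK, innate and gamma-delta markers (9 of 9 detected) summed to 27.9 to 42.1 CPM in WT and 43.8 to 53.3 CPM in KO. Most of the latter was Gzma, at 25.9, 36.8 and 40.1 CPM in WT and 47.3, 38.2 and 46.0 CPM in KO, with overlap. Tcrg-C1 (mean 0.86 CPM in WT and 2.38 in KO) and Tcrg-C2 (0.84 and 2.42) did not overlap, and edgeR called neither. Both sums were higher in all KO libraries, as Mbnl1, Mbnl2 and Gm33707 were, and their part in those values was not tested. Within the myeloid and dendritic list, Cd74 stood at 2.69, 5.15 and 3.52 CPM in WT and 2.42, 18.7 and 10.5 CPM in KO. Cd74 and H2-Eb1 overlapped between groups, while H2-Ab1 and Fcer1g did not. The other sums overlapped or were low: mature single-positive markers (9 of 10 detected) gave 283.5 to 298.7 CPM in WT and 284.0 to 316.6 CPM in KO, B cell markers (8 of 8) 797.5 to 846.2 and 798.6 to 845.1 CPM, and stromal markers (9 of 12, with Krt5, Foxn1 and Pdgfra at 0) 153.3 to 179.6 and 149.4 to 159.7 CPM. Platelet markers gave 3.66 to 4.68 CPM in WT and 3.15 to 4.12 CPM in KO, with 7 of 10, including Pf4, Ppbp and Gp9, at 0 in all libraries. Red cell markers (6 of 7 detected) stayed below 1 CPM in each library.

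By likeness of log2 CPM over the 6 libraries, among 9033 genes with an average of at least 3, the genes closest to Mbnl1 were Phf3 (r = 0.99), Serpinb9 (r = 0.99), Trmt10c (r = 0.99), Gimap9 (r = 0.99) and Tmx3 (r = 0.99). Those closest to Gm33707 were Tbcel (r = 0.99), Pcnx (r = 0.98), Ergic1 (r = 0.98), Mgat1 (r = 0.98) and Slx4ip (r = 0.97). Their own differences were smaller than that of Mbnl1, from a log2 fold change of 0.11 for Tmx3 to 0.43 for Ergic1. With 3 libraries on each side, a gene that separates the groups can give a high r for that reason alone, and the libraries share their depth and scaling. Between members, Mbnl1 had r = 0.71 with Mbnl2, 0.46 with Mbnl3 and 0.95 with Gm33707. Within KO the last relation did not follow the same order: Mbnl1 was highest in replicate 3, in which Gm33707 was lowest.

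**Figure D5:**
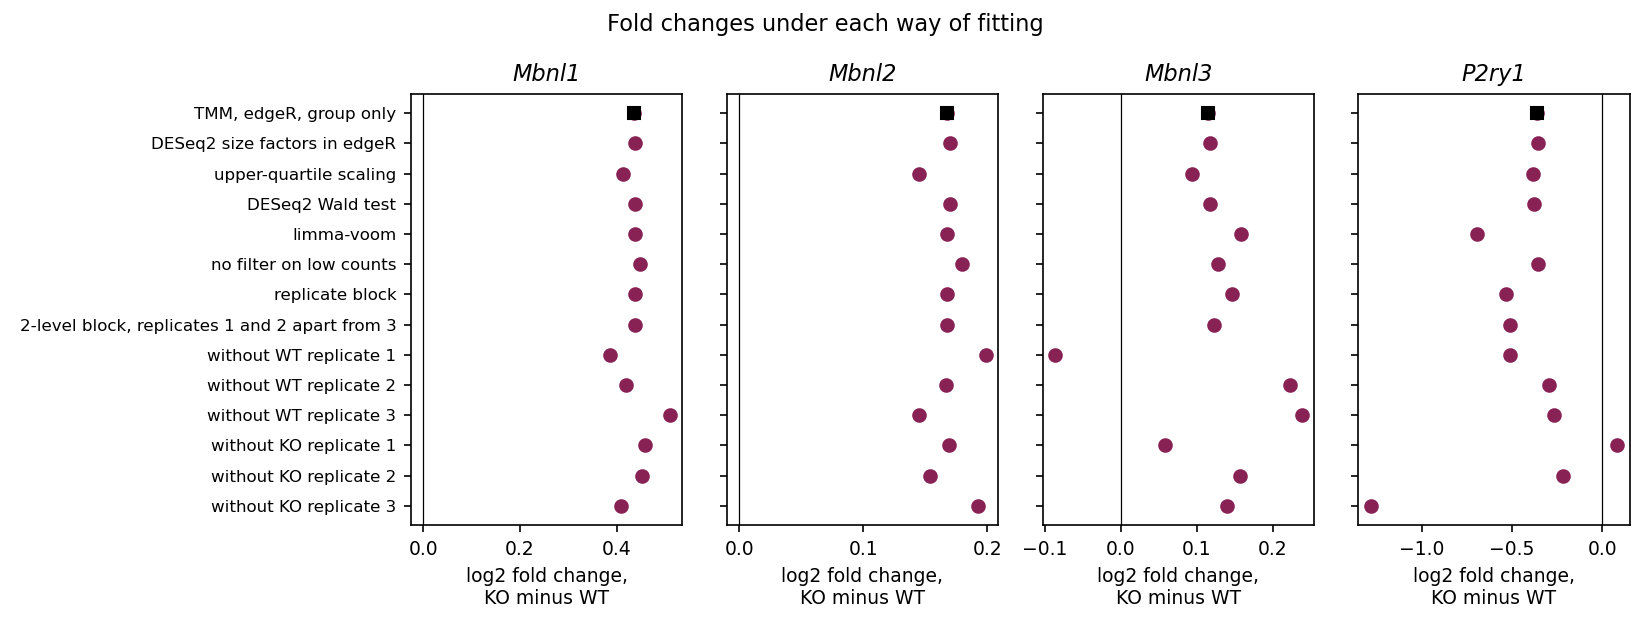
Log2 fold changes (x axis, KO minus WT) of Mbnl1, Mbnl2, Mbnl3 and P2ry1 under each way of fitting (y axis); the square is the value reported and circles are alternatives, with a separate x range for each gene. Mbnl1 stays between 0.39 and 0.51 and Mbnl2 between 0.14 and 0.20, while Mbnl3 crosses 0 without WT replicate 1 and P2ry1 without KO replicate 1.

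The values of Mbnl1 and Mbnl2 kept their direction in each alternative that was run. Mbnl1 was chosen as higher in KO in these same libraries, so its kept direction is a description and no support. The log2 fold change of Mbnl1 ranged from 0.39 to 0.51, and that of Mbnl2 from 0.14 to 0.20 with edgeR, DESeq2 or limma adjusted p from 0.429 to 0.999. The plot of fold changes under each way of fitting also shows Mbnl3 (-0.087 to 0.24) and P2ry1 (-1.28 to 0.085), which were not chosen for a difference.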

How the data were processed

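RNA was extracted from sorted thymocytes and sequenced from Illumina TruSeq libraries, per the labels' protocols. Trimmomatic 0.33, STAR 2.5.2, HTSeq and DESeq2 on mm10 are named in the submitters' processing notes. No counting mode, strand setting or annotation release is given in the sources used here. The authors deposited raw counts per gene. Their deposited normalized signal equals the counts over a size factor, 1 for each library. The deposited log2 fold changes, Wald score and p-values come from their DESeq2 fit on a table named as paired; what was paired is not given. Positions and lengths are as in the deposited headers.

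Rows that name no gene stayed out of library sizes: of all reads in the counting output, 12.3% to 15.2% had no feature, 22.6% to 23.9% had several alignments and 0.653% to 0.701% were ambiguous. Replicate libraries differed by more than sampling noise (chi-square per degree of freedom 17.7 or more). All 6 libraries were fitted with edgeR 4.0.16 in R 4.3.3 (TMM, filterByExpr by group, quasi-likelihood, group only, two-sided, Benjamini-Hochberg over 13039 genes, threshold 0.05), tested on simulated data. SE is the log2 fold change over the square root of F. CPM are TMM-scaled counts, and log2 CPM used a prior count of 2. DESeq2 1.42.0, limma-voom 3.58.1, other scalings, no filter, blocks and leaving out each library were alternatives. Of 43430 identifiers 42462 matched the name table. Transcripts are GENCODE M21 (GRCm38), searched with BLAST 2.17.0 (expect threshold 1e-20).

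The members and gene lists were chosen with earlier results of these data known. The genes named are the members, detected neighbours, up to 4 tested genes per list with the lowest p, the 5 most like Mbnl1 and Gm33707, sequence matches of Gm33707, and Mettl14. For marker lists mainly sums are given. Outside this rule, Mki67, Cdc45, Xist, Ddx3y, Cacna1e, Hmga1b, Atp6v0c-ps2, Gm9825, Gm38280, Gm38326 and Gm37035 were named after their values were seen.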

Additional observations from a re-analysis of the deposited data

How the results depend on the processing

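The number of genes called was 5, and 5 again with DESeq2 size factors, upper-quartile scaling or a block. With limma-voom it was 7 (1 higher). It was 88 (30 higher) with the DESeq2 Wald test and 30 (4 higher) without a filter on low counts, and 4 to 23 when 1 library was left out: 8 with WT replicate 1 left out, 23 with WT replicate 3 and 14 with KO replicate 2 left out. The cause was not tested. With DESeq2, Mettl14 was called (-0.48, adjusted p = 0.002), as were 2 genes of the lists, Tcrg-C1 (1.46) and Tcrg-C2 (1.54). The Mbnl3 value reversed to -0.087 without WT replicate 1 (range to 0.24) and that of P2ry1 to 0.085 without KO replicate 1 (range from -1.28). The Gm33707 ratio ran from 1312 to 4187 when 1 library was left out. The lower value is without WT replicate 2, which holds 0 of the 3 WT reads, and the higher without WT replicate 3, which holds 2; it was not recomputed under DESeq2, limma-voom or the blocks. The median of the CCCH list was 0.031 without WT replicate 1, and that of the enolases 0.39 without a filter. The medians of the splicing regulators (-0.033 to 0.014), the MBNL-controlled genes (-0.058 to 0.0097) and the P2 receptors (-0.21 to 0.015) took both signs. Left-out fits keep at least 2 libraries per group.

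Replicate numbers are shared by the groups. The deviations of same-numbered libraries had correlations of -0.15, 0.080 and 0.19, and those of differently numbered libraries ran from -0.28 to 0.18. Such weak values cannot settle whether the numbers pair the libraries. With a replicate block, 5 genes were called, and the log2 fold changes were 0.44 for Mbnl1, 0.17 for Mbnl2 (adjusted p = 0.817), 0.15 for Mbnl3, -0.54 for P2ry1 and -0.49 for Mettl14. Depth limits P2ry1 and the intronic transcripts, and 3 libraries per group limit what the Mbnl2 difference can show.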
